A study of Mus musculus with 12 samples.

Results

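The growth hormone and insulin-like growth factor (IGF) axis was followed in mouse liver RNA-Seq libraries through 10 genes, taken by symbol from a table of 22456 genes. They were Igf1, Igfals, Igfbp1, Igfbp2, Igfbp3, Igfbp4, Ghr, Socs2, Cish and Stat5b, a list of pathway genes. The libraries came from male BALB/cByJ mice aged 2 to 8 months, either wild type (Lpin1+/+) or Lpin1-/- (FLD, fatty liver dystrophy), which lack the phosphatidate phosphatase lipin 1 in every tissue. Mice of both genotypes, caged singly, were fasted for 16 hours, or were fasted for 16 hours and then refed chow for 5 hours, with 3 libraries in each of the 4 groups (12 in all). Refed livers were taken later in the day than fasted livers, so feeding state and time of day cannot be told apart. The labels number the libraries of a group as replicates, and p-values measure only the spread between them.

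As background, growth hormone from the pituitary binds its receptor on hepatocytes, and the kinase JAK2 then activates the transcription factor STAT5B, which drives Igf1 and Igfals. IGF1 leaves the liver and circulates mostly in a ternary complex with the acid-labile subunit, the product of Igfals, and a binding protein, chiefly IGFBP3. SOCS2 and CISH are feedback inhibitors of the receptor that STAT5 induces, and IGFBP1 is the binding protein that insulin represses and fasting induces.

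Expression was given as RPKM, reads scaled to exon length and to mapped reads, which is a level per length and can be compared between genes. Log2 differences were fitted by limma on log2(RPKM + 1) across 11507 genes averaging 0.5 RPKM or more, so a fold is a fold of RPKM + 1, and a gene was called at an adjusted p (Benjamini-Hochberg over all genes tested) under 0.05. All 10 genes passed that filter. Sequencing was deep, and low RPKM values gave relative depths of 0.866 to 1.16 of the first fasted Lpin1+/+ library. Lpin1 itself lay between 0.726 and 22.0 RPKM in the 6 Lpin1+/+ libraries and between 0.00573 and 0.0597 RPKM in the 6 Lpin1-/- libraries, with no overlap, though neither genotype difference was called (limma log2 difference -2.19, adjusted p = 0.0562 when fasted, and -1.55, adjusted p = 0.231 when refed). Summed RPKM of 9 hepatocyte markers ranged from 65200 to 80600 in fasted Lpin1+/+, 67300 to 84600 in fasted Lpin1-/-, 41400 to 71600 in refed Lpin1+/+ and 74400 to 78600 in refed Lpin1-/- liver. Sums over 8 cholangiocyte markers (25.2 to 457 RPKM in fasted Lpin1-/- and 32.6 to 46.2 in fasted Lpin1+/+ liver), 9 lymphocyte and neutrophil markers (51.7 to 179 and 14.3 to 123) and 5 red blood cell markers (466 to 1940 and 575 to 848) overlapped between the fasted genotypes. For refed Lpin1-/- liver the cholangiocyte sum ranged from 19.6 to 28.5, lower without overlap than the 32.3 to 104 of refed Lpin1+/+ liver, while the lymphocyte and neutrophil sums (24.7 to 54.1 against 5.28 to 109) and the red blood cell sums (235 to 722 against 501 to 866) overlapped. Spp1 made up most of the refed cholangiocyte sums, at 15.8, 18.7 and 25.1 RPKM in Lpin1-/- and 27.1, 96.1 and 36.0 RPKM in Lpin1+/+ liver. All 6 cholangiocyte markers tested were lower in refed Lpin1-/- liver, with 0 called by limma. In bulk liver, fewer cells of a type and less RNA per cell cannot be told apart.

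The genotype differences of the axis were led by Igfbp1 and Igfals, in opposite directions. In fasted liver Igfbp1 rose and Igfals fell in Lpin1-/- mice, which made 2 of 10 genes called, beside 18.8% of all genes tested (2168). In refed liver 1 of 10 was called, Igfals, which fell, beside 6.67% of all genes (767). With refeeding, 0 of 10 genes were called by limma in Lpin1+/+ liver, where 1 (Igfbp1) had an unadjusted p under 0.05 and 1.72% of all genes were called (198). In Lpin1-/- liver 2 of 10 were called, Igfals higher and Igfbp1 lower, beside 20.7% of all genes (2382). No gene of the axis was called for a genotype by feeding interaction in limma, where 1 (Stat5b) had an unadjusted p under 0.05 and 1.28% of all genes were called (147). The members' shares rest on 10 genes, and those in Lpin1-/- refeeding and in the fasted genotype comparison stand near the shares over all genes. The 4 comparisons use the same libraries in pairs, so they are not independent of each other.

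**Figure D1:**
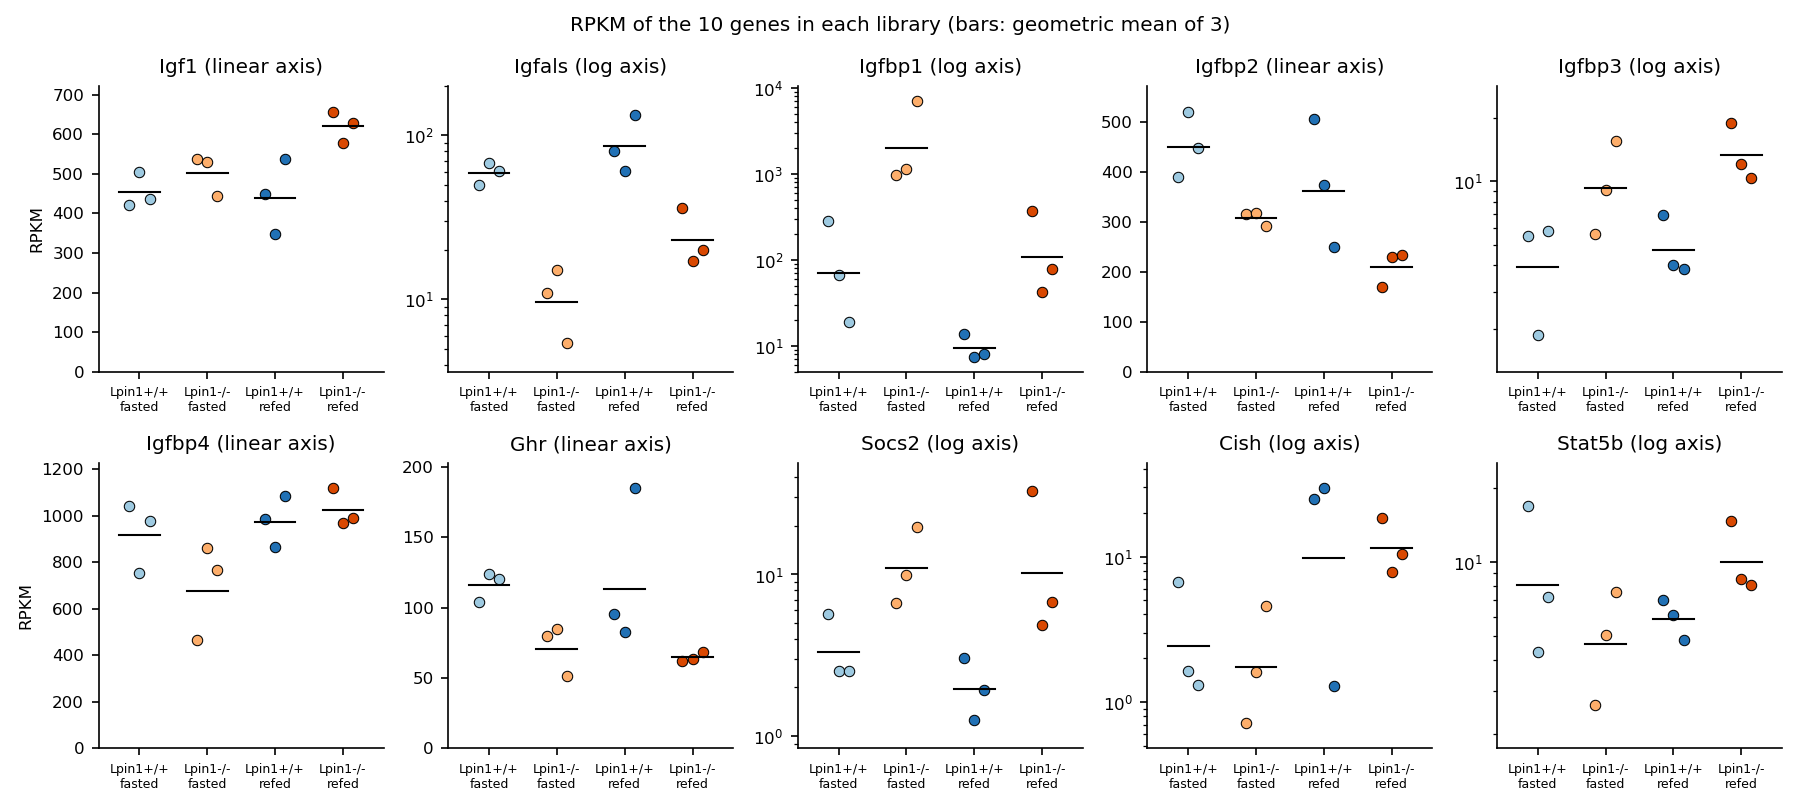
RPKM of the 10 genes in each of the 12 libraries (points), by group, with the geometric mean of 3 libraries as a bar. Panel titles say whether an axis is linear from 0 or logarithmic. Igfals lies lower in all Lpin1-/- libraries than in the Lpin1+/+ libraries of the same feeding state, and Igfbp1 lies higher.

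The promoters of these 2 genes are shown because they hold letters of factors that act on the axis. Each window shown is the 250 bases before a transcription start in RefSeq (GRCm38.p6), 5′ to 3′ on the plus strand. Capitals mark matches, found on both strands, to a STAT5 site (TTCNNNGAA), a FoxO site (GTAAACA, in capitals as its reverse complement) or an insulin response element core (CAAAACA), 3 motifs that do not overlap here. The Igfbp1 window is chr11:7197537-7197786 and that of Igfals is chr17:24877981-24878230.
Igfbp1: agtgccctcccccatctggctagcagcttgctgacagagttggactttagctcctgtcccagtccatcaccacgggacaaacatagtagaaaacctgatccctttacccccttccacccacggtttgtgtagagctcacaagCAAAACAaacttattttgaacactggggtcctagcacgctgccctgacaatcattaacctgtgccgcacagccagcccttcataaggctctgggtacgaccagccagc
Igfals: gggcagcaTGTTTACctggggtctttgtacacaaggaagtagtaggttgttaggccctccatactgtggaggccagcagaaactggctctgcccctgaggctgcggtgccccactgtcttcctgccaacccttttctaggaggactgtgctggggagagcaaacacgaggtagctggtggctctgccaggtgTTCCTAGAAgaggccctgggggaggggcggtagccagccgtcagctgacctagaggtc
The insulin response element core lay 108 bases before the Igfbp1 start. In the Igfals window the FoxO letters lay 242 bases and the STAT5 letters 58 bases before the start, and a window of another Igfals start held STAT5 letters 236 bases before it. The search covered 250 bases before and 50 bases after each start. Among 14 such windows of 9 genes (all but Socs2), STAT5 letters stood in 3, at both named Igfals starts and, after the start, at Cish. The FoxO and insulin response letters stood in 1 each. Of all 32851 windows searched in the same way, 8.3% held the STAT5 letters, 3.65% the FoxO letters and 6.28% the insulin response element core. A match describes the letters and no more. A window without GTAAACA, such as that of Igfbp1, is not thereby shown to lack binding of a FoxO factor.

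Igf1 encodes the circulating ligand and was among the most abundant transcripts of the axis in every group. Its RPKM was 422, 506 and 436 in fasted Lpin1+/+, 539, 529.9 and 444 in fasted Lpin1-/-, 450.4, 349 and 537 in refed Lpin1+/+, and 656, 578 and 629 in refed Lpin1-/- liver. The fasted genotypes overlapped, whereas all 3 refed Lpin1-/- libraries lay above all 3 refed Lpin1+/+ libraries. The refed genotype difference in Igf1 was 0.50 on the log2 scale (95% interval 0.05 to 0.94) and was not called by limma (adjusted p = 0.172). The fasted genotype difference of Igf1 was 0.15 (adjusted p = 0.652, limma). Refeeding gave -0.05 in Lpin1+/+ (adjusted p = 0.942) and 0.30 in Lpin1-/- liver (adjusted p = 0.304) in limma, so Igf1 mRNA had no called response to feeding in either genotype.

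Igfals encodes the acid-labile subunit, which hepatocytes make and which holds IGF1 in the circulation. Its RPKM was 50.2, 68.3 and 61.0 in fasted Lpin1+/+ liver and 10.98, 15.01 and 5.42 in fasted Lpin1-/- liver. Refed values were 80.1, 60.9 and 133 in Lpin1+/+ and 36.1, 17.2 and 19.9 in Lpin1-/- liver. The genotypes did not overlap in either feeding state, and the highest Lpin1-/- value of all (36.1) lay under the lowest Lpin1+/+ value (50.2). Igfals fell by 2.49 on the log2 scale in fasted Lpin1-/- liver (95% interval -3.33 to -1.66, 5.63-fold lower, limma adjusted p = 0.00165), a call that held with any 1 library left out. It fell by 1.86 in refed Lpin1-/- liver (-2.70 to -1.02, 3.63-fold lower, adjusted p = 0.0172), a call lost without refed Lpin1+/+ replicate 3 (adjusted p = 0.0601) or refed Lpin1-/- replicate 2 (0.0699) or 3 (0.0704). The hepatocyte marker sums of the genotypes overlapped when fasted and were higher in every refed Lpin1-/- library than in any refed Lpin1+/+ library. Alb made up much of those refed sums, at 35100, 32300 and 32900 RPKM in Lpin1-/- and 20770, 11780 and 26540 RPKM in Lpin1+/+ liver. Of the 9 refed marker differences 7 were positive and 2 negative, with 0 called by limma. The part of these markers in the Igfals values was not tested. With refeeding of Lpin1-/- mice Igfals rose by 1.17 (95% interval 0.34 to 2.01, 2.26-fold, limma adjusted p = 0.0493). That call stood just under the threshold and was lost in 8 of 12 fits with 1 library left out, namely fasted Lpin1+/+ replicate 2 or 3, fasted Lpin1-/- replicate 1 or 3, refed Lpin1+/+ replicate 1, or any refed Lpin1-/- library. Refeeding gave 0.54 for Igfals in Lpin1+/+ liver (adjusted p = 0.572), and the difference between the 2 refeeding changes had an adjusted p of 0.542 in limma.

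Because Igf1 and Igfals products circulate together, the ratio of their RPKM was taken in each library. The Igfals to Igf1 ratio was 0.119, 0.135 and 0.14 in fasted Lpin1+/+ and 0.0204, 0.0283 and 0.0122 in fasted Lpin1-/- liver. Refed ratios were 0.178, 0.174 and 0.248 in Lpin1+/+ and 0.055, 0.0298 and 0.0317 in Lpin1-/- liver. All 6 Lpin1-/- ratios lay under all 6 Lpin1+/+ ratios.

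Igfbp1 encodes a short-lived binding protein that keeps IGF1 from its receptor. Fasted RPKM was 283, 65.6 and 18.8 in Lpin1+/+ and 961, 1139 and 6961 in Lpin1-/- liver. Refed RPKM was 13.5, 7.45 and 7.91 in Lpin1+/+ and 364, 42.6 and 78.5 in Lpin1-/- liver. No 2 groups of the same genotype or feeding state overlapped, and the spread within a group was wide. Igfbp1 rose by 4.77 on the log2 scale in fasted Lpin1-/- liver (95% interval 2.53 to 7.02, 27.3-fold, limma adjusted p = 0.00905). The call held with any 1 library left out, but the size of the Igfbp1 difference moved, to 3.84 without fasted Lpin1+/+ replicate 3, 3.86 without fasted Lpin1-/- replicate 3 and 5.76 without fasted Lpin1+/+ replicate 1. Its refed genotype difference was 3.39 (1.15 to 5.64, 10.5-fold) and was not called (limma adjusted p = 0.0739), although the adjusted p was 0.0396 without fasted Lpin1+/+ replicate 1 and 0.04 in a fit of the 6 refed libraries alone. Refeeding of Lpin1-/- mice lowered Igfbp1, which fell by 4.19 (95% interval -6.43 to -1.94, 18.2-fold lower, limma adjusted p = 0.0156). That call was lost without refed Lpin1-/- replicate 2 (adjusted p = 0.0703) or 3 (0.0533), and the Igfbp1 difference was -3.28 without fasted Lpin1-/- replicate 3 and -5.06 without refed Lpin1-/- replicate 1. In Lpin1+/+ liver the refeeding difference of Igfbp1 was -2.80 (95% interval -5.05 to -0.56, limma adjusted p = 0.242). Its interaction stood at -1.38 (limma adjusted p = 0.62), so a difference between the genotypes in the refeeding change of Igfbp1 was not shown.

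Igfbp2 encodes a binding protein abundant in liver. Its RPKM was 389.8, 520 and 449 in fasted Lpin1+/+ and 316, 318 and 291 in fasted Lpin1-/- liver, and 506, 373 and 249 in refed Lpin1+/+ and 170.0, 231 and 235 in refed Lpin1-/- liver. All Lpin1-/- values lay below the Lpin1+/+ values of their feeding state. The log2 differences of Igfbp2 were -0.54 fasted (adjusted p = 0.161) and -0.78 refed (adjusted p = 0.0926) in limma, and neither was called. Without refed Lpin1+/+ replicate 3 the refed difference of Igfbp2 was called (-1.05, adjusted p = 0.0443).

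Igfbp3 encodes the main partner of IGF1 in the ternary complex, and in liver it is expressed largely by nonparenchymal cells. The gene lies next to Igfbp1 on chromosome 11 (GRCm38 with GENCODE M21, chr11:7206086-7213923, against chr11:7197782-7202546 for Igfbp1). Fasted RPKM of Igfbp3 was 5.49, 1.89 and 5.84 in Lpin1+/+ and 5.63, 9.09 and 15.5 in Lpin1-/- liver, where the groups overlapped. Refed RPKM was 6.93, 4.00 and 3.86 in Lpin1+/+ and 18.8, 12.1 and 10.3 in Lpin1-/- liver, with no overlap. The log2 differences of Igfbp3 were 1.04 fasted (adjusted p = 0.0985) and 1.31 refed (adjusted p = 0.08), not called in limma. With the libraries rescaled so that the typical gene did not differ, both were called, at 1.24 (adjusted p = 0.0262) and 1.34 (adjusted p = 0.0401). The refed difference of Igfbp3 was called too without fasted Lpin1+/+ replicate 2 (adjusted p = 0.0479) and in a fit of the 6 refed libraries alone (0.0418). Summed RPKM of 9 endothelial markers was 28.4 to 76.6 in fasted Lpin1+/+, 48.2 to 80.7 in fasted Lpin1-/-, 41.4 to 86.4 in refed Lpin1+/+ and 50.9 to 72.9 in refed Lpin1-/- liver, and none of the 9 was at 0 in all libraries. For 10 stellate cell markers the sums were 104 to 266, 301 to 440, 143 to 305 and 253 to 341 in the same order, and for 10 Kupffer cell markers 192 to 395, 367 to 1000, 109 to 930 and 117 to 272, and none of these markers was at 0 in all libraries either. The stellate sum was thus higher in every fasted Lpin1-/- library than in any fasted Lpin1+/+ library, and its part in the Igfbp3 values was not tested. Dcn was its largest part, at 264, 179 and 240 RPKM in fasted Lpin1-/- and 141, 61.8 and 144 RPKM in fasted Lpin1+/+ liver. Of the 10 fasted stellate differences 9 were positive and 1 negative, with 0 called by limma. Of the marker genes, Lyve1 of endothelial cells rose in fasted Lpin1-/- liver (1.77 ± 0.46 SE, limma adjusted p = 0.0208). Of the 9 endothelial differences in that comparison 6 were positive and 3 negative, and their median was 0.29. With refeeding of Lpin1-/- mice Gpr182, also endothelial, rose (1.41 ± 0.32 SE, limma adjusted p = 0.0114), while 5 of the 9 endothelial differences were negative and their median was -0.05. Clec4f of Kupffer cells fell (-1.28 ± 0.34 SE, limma adjusted p = 0.0235), and all 10 Kupffer differences were negative (median -1.58).

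Igfbp4, which encodes a binding protein that inhibits IGF action, had the highest level of the family in Lpin1+/+ liver. Its RPKM was 1044, 753 and 978 in fasted Lpin1+/+, 468, 861 and 767 in fasted Lpin1-/-, 988, 865 and 1084 in refed Lpin1+/+, and 1118, 970 and 992 in refed Lpin1-/- liver. The genotypes overlapped in both states. Log2 differences by genotype were -0.44 fasted (adjusted p = 0.264) and 0.07 refed (adjusted p = 0.896), and refeeding gave 0.09 (adjusted p = 0.913) in Lpin1+/+ and 0.60 (adjusted p = 0.117) in Lpin1-/- liver in limma.

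The makeup of binding protein mRNA was followed as each gene's share of the summed RPKM of Igfbp1 to Igfbp7. Igfbp1 made up 15.9, 4.78 and 1.22% of the sum in fasted Lpin1+/+ liver but 50.8, 46.3 and 85.3% in fasted Lpin1-/- liver. On refeeding its share was 0.844, 0.545 and 0.568% in Lpin1+/+ and 20.9, 3.19 and 5.65% in Lpin1-/- liver. The genotypes did not overlap in either state. Igfbp4 held 54.8 to 63.5% of the sum in fasted Lpin1+/+, 9.40 to 35.0% in fasted Lpin1-/-, 61.6 to 77.8% in refed Lpin1+/+ and 64.3 to 72.7% in refed Lpin1-/- liver. The sum itself was 1373 to 1780 RPKM in fasted Lpin1+/+ and 1893, 2460 and 8159 RPKM in fasted Lpin1-/- liver, and the refed ranges were 1368 to 1604 and 1335 to 1739. In fasted Lpin1-/- liver, then, Igfbp1 was the leading binding protein transcript in all 3 libraries, and in the other 3 groups Igfbp4 was.

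**Figure D2:**
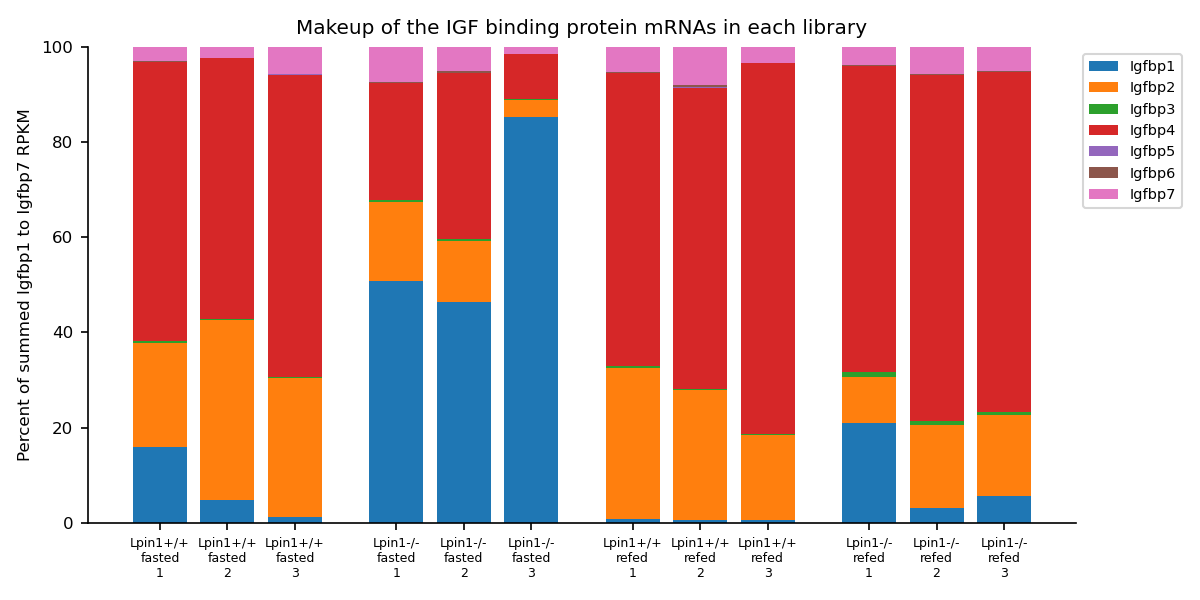
Percent of the summed RPKM of Igfbp1 to Igfbp7 taken by each gene, 1 stacked bar per library. Igfbp1 fills 46.3 to 85.3% of the bar in fasted Lpin1-/- liver and at most 20.9% in any other library.

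Ghr encodes the growth hormone receptor. Its RPKM was 104, 124 and 120.4 in fasted Lpin1+/+, 80.2, 84.7 and 51.5 in fasted Lpin1-/-, 95.2, 82.8 and 185 in refed Lpin1+/+, and 62.3, 63.2 and 68.8 in refed Lpin1-/- liver. Lpin1-/- values lay below Lpin1+/+ values in both states, and refed Lpin1+/+ replicate 3 stood apart above the rest. The log2 differences of Ghr were -0.71 fasted (adjusted p = 0.105) and -0.80 refed (adjusted p = 0.118) in limma, not called. Without that library the fasted difference of Ghr was called (adjusted p = 0.0386), and the refed difference was -0.45 (adjusted p = 0.286).

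Stat5b encodes the transcription factor that the receptor activates. Its RPKM was 16.8, 4.33 and 7.23 in fasted Lpin1+/+, 2.63, 5.04 and 7.56 in fasted Lpin1-/-, 6.99, 6.07 and 4.82 in refed Lpin1+/+, and 14.6, 8.49 and 8.05 in refed Lpin1-/- liver. Only the refed Lpin1-/- libraries lay above both the fasted libraries of their genotype and the refed libraries of the other genotype. Refeeding gave log2 differences of 0.95 in Lpin1-/- (adjusted p = 0.135) and -0.42 in Lpin1+/+ liver (adjusted p = 0.709), and the interaction of 1.36 was not called (adjusted p = 0.264, limma).

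Socs2 and Cish, the inhibitors that STAT5 induces, did not share a pattern. Socs2 RPKM was 5.73, 2.51 and 2.52 in fasted Lpin1+/+ and 6.70, 9.87 and 19.6 in fasted Lpin1-/- liver, and 3.05, 1.26 and 1.92 in refed Lpin1+/+ and 32.9, 4.87 and 6.72 in refed Lpin1-/- liver. All Lpin1-/- values were above the Lpin1+/+ values of their state, with replicate 1 of refed Lpin1-/- far above the other two. The Socs2 differences were 1.46 fasted (95% interval 0.16 to 2.75, adjusted p = 0.109) and 1.95 refed (0.65 to 3.24, adjusted p = 0.075) in limma, not called. Without refed Lpin1-/- replicate 1 the fasted difference of Socs2 was called (adjusted p = 0.0279). Cish RPKM was 6.66, 1.62 and 1.30 in fasted Lpin1+/+ and 0.720, 1.60 and 4.58 in fasted Lpin1-/- liver, and 25.0, 29.5 and 1.28 in refed Lpin1+/+ and 18.5, 7.82 and 10.5 in refed Lpin1-/- liver. The genotypes overlapped in both states, while every refed Lpin1-/- library was above every fasted one. The refeeding difference of Cish was 2.10 in Lpin1-/- liver (adjusted p = 0.108) and 1.76 in Lpin1+/+ liver (adjusted p = 0.4, limma), where replicate 3 stayed at the fasted level. Without that library the Lpin1-/- difference of Cish was called (adjusted p = 0.0213), as it was in a fit of the 6 Lpin1-/- libraries alone (0.0208), where that of Igfals was not (0.068).

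Ordered by RPKM in fasted Lpin1+/+ liver (mean ± SD, n = 3), Igfbp4 came first at 925 ± 153, then Igf1 at 454 ± 44.9 and Igfbp2 at 453 ± 65.2, which did not differ beyond their spread. Igfbp1 (122 ± 141) and Ghr (116 ± 10.6) followed, again within their spread, and Igfals stood at 59.8 ± 9.11. The intracellular signalling genes and Igfbp3 came last and overlapped, with Stat5b at 9.46 ± 6.55, Igfbp3 at 4.40 ± 2.19, Socs2 at 3.59 ± 1.86 and Cish at 3.19 ± 3.01. In fasted Lpin1-/- liver Igfbp1 had the highest mean (3020 ± 3410) and Igfals fell to the level of Socs2 (10.5 ± 4.81 and 12.1 ± 6.72).

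Counted by whether the 3 libraries of each group overlapped, 1 of 10 genes (Igfbp1) was separated by refeeding in Lpin1+/+ liver, where 18.1% of all genes were, and 7 of 10 in Lpin1-/- liver, where 46.8% were. By genotype, 5 of 10 were separated when fasted (32.9% of all genes) and 8 of 10 when refed (33.9% of all genes). Those 8 were Igf1, Igfbp1, Igfbp3, Socs2 and Stat5b, which were higher in Lpin1-/- libraries, and Igfals, Igfbp2 and Ghr, which were lower. Beside the calls, the median log2 difference of the 10 genes was -0.37 fasted and 0.28 refed by genotype, where the median over all genes was -0.14 and -0.07, and -0.04 and 0.39 for refeeding of Lpin1+/+ and Lpin1-/- liver, where all genes stood at 0.19 and 0.25.

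**Figure D3:**
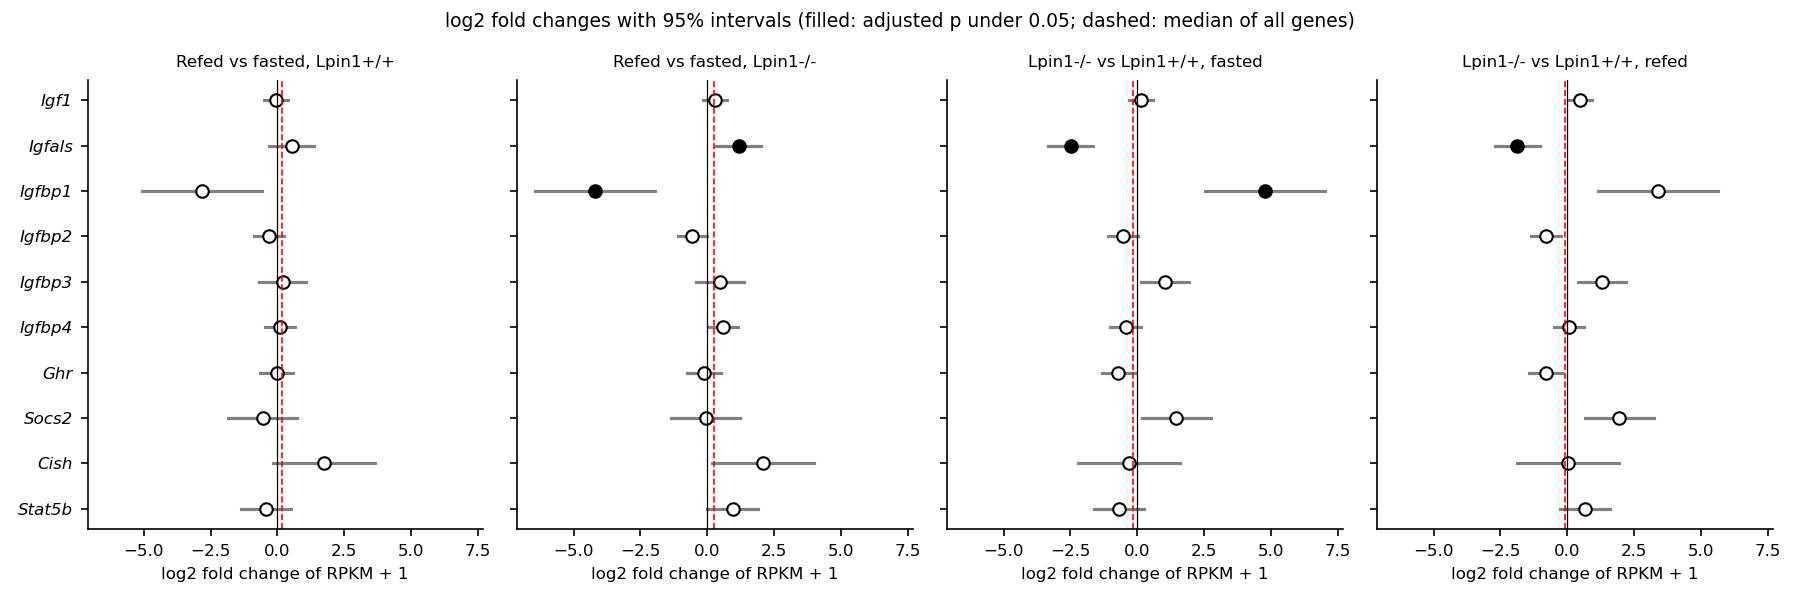
Log2 difference of RPKM + 1 for each gene in each comparison, with its 95% interval from limma. Filled points passed an adjusted p of 0.05, and the dashed line is the median of all 11507 genes. Igfbp1 and Igfals are the filled points.

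The other genes of the pathway were taken as lists. Of 12 further IGF ligands, receptors, binding proteins and proteases, 6 passed the expression filter, and Igf2, Igf1r, Pappa, Pappa2, Stc1 and Stc2 did not. In fasted Lpin1-/- liver, where 18.8% of all genes were called, 2 of the 6 rose and 1 fell. The risers were Htra1, a secreted protease that cleaves binding proteins (1.85 ± 0.48 SE, adjusted p = 0.0217), and Igfbp7, a low-affinity binding protein of vessel and stellate cells (1.25 ± 0.35 SE, adjusted p = 0.0298, limma). The stellate cell marker sums given above were also higher in those libraries, and their part in the Igfbp7 value was not tested. Igf2r, the mannose 6-phosphate receptor that clears IGF2, fell by 0.94 (± 0.28 SE, limma adjusted p = 0.0405). None of the 6 was called by limma in refed liver, where 2 had an unadjusted p under 0.05, or with refeeding, where 1 did in each genotype. Of 22 tested genes of JAK-STAT signalling and its inhibitors, 1 fell in fasted Lpin1-/- liver (18.8% of all genes called), Stat5a (-0.68 ± 0.19 SE, limma adjusted p = 0.03), the near relative of Stat5b. In refed liver 0 of 22 were called by limma, with 0 at an unadjusted p under 0.05. With refeeding of Lpin1-/- mice, where 20.7% of all genes were called, 2 of 22 rose, Stat5a (0.91 ± 0.19 SE, limma adjusted p = 0.00824) and Socs5 (0.78 ± 0.19 SE, adjusted p = 0.0154), and in Lpin1+/+ mice 0 of 22 were called, with 2 at an unadjusted p under 0.05.

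Growth hormone also sets sex differences in liver, since its pulses in males maintain male-biased genes and keep female-biased genes low, and all mice here were male. Of 18 tested male-biased genes, 2 fell in fasted Lpin1-/- liver, beside 18.8% of all genes called in either direction. They were Cyp2u1, a fatty acid hydroxylase (-1.90 ± 0.41 SE, adjusted p = 0.00942), and Mup7, a major urinary protein (-2.73 ± 0.87 SE, adjusted p = 0.0475, limma). Mup7 is uncertain, since near-identical family members can share its reads. Cyp2u1 RPKM was 4.26, 4.52 and 7.26 in fasted Lpin1+/+ and 0.4997, 1.08 and 0.487 in fasted Lpin1-/- liver. Of the 18 differences 17 were negative when fasted (median -0.83, where all genes had -0.14) and 15 when refed (median -0.52, where all genes had -0.07), when 0 were called by limma and 5 had an unadjusted p under 0.05. The 18 include Mup1, Mup3, Mup20 and Mup21 beside Mup7, so the differences are not all separate. The list was also chosen with earlier results of these data known.

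Of 10 tested female-biased genes, 2 rose in fasted and 3 in refed Lpin1-/- liver, beside 18.8% and 6.67% of all genes called in either direction. Cyp2b10, a drug-metabolizing cytochrome P450, was at 99.7, 26.0 and 18.0 RPKM in fasted Lpin1+/+ and 112, 397 and 806 RPKM in fasted Lpin1-/- liver, and at 27.1, 5.37 and 11.7 in refed Lpin1+/+ and 266, 268 and 244 RPKM in refed Lpin1-/- liver. It rose by 3.15 (adjusted p = 0.0152) and 4.30 (adjusted p = 0.00926) in limma. Cyp2a4 rose when fasted (3.00, adjusted p = 0.0101), and Cyp3a44 (1.24, adjusted p = 0.0289) and Cyp3a16 (0.80, adjusted p = 0.044) when refed, and these 3 have near-identical copies that make their values uncertain. The differences were positive for 9 of 10 genes when fasted (median 0.64) and 10 of 10 when refed (median 1.22). These genes too were chosen with earlier results of these data known. They include Cyp2b9 beside Cyp2b10, and Cyp3a41a beside Cyp3a44 and Cyp3a16, so the differences are not all separate. With refeeding, Elovl3, a male-biased elongase, fell by 2.55 in Lpin1+/+ (adjusted p = 0.0124) and by 1.47 in Lpin1-/- liver (adjusted p = 0.0235), Cyp3a16 fell by 1.07 (adjusted p = 0.0293) and by 0.85 (adjusted p = 0.0151), and Cyp2u1 rose by 1.88 in Lpin1-/- liver (adjusted p = 0.00952, limma).

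**Figure D4:**
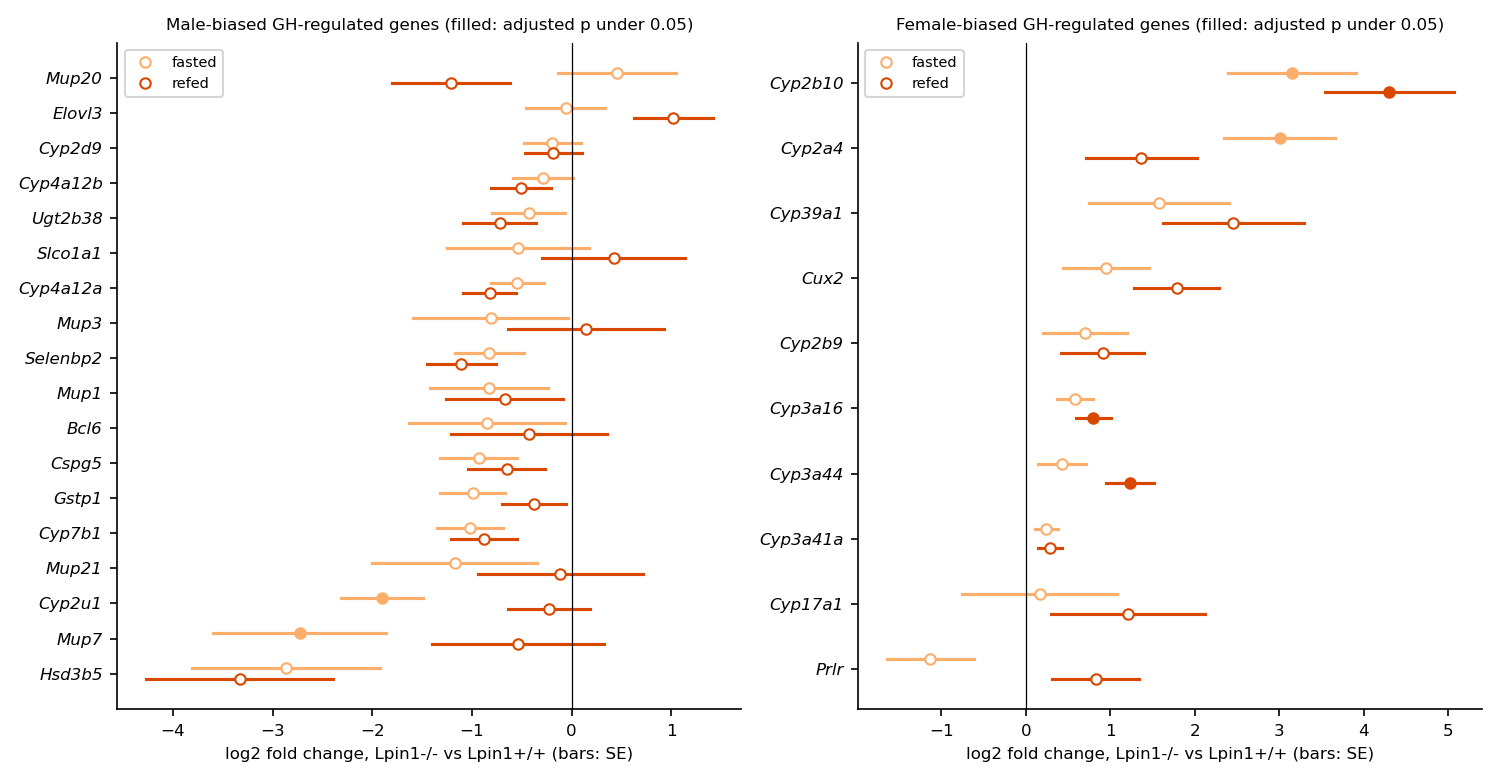
Log2 difference of RPKM + 1 between Lpin1-/- and Lpin1+/+ liver (± SE) for the male-biased and female-biased genes, fasted and refed. Filled points passed an adjusted p of 0.05 in limma. Male-biased genes lie mostly below 0 (17 of 18 fasted) and female-biased genes mostly above it (10 of 10 refed). Both lists were chosen with earlier results of these data known.

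For each gene of the axis, the genes whose log2 level followed it most closely over the 12 libraries were found by Pearson's r, as a description over libraries that share 4 groups. Igfals was most like Tmem19 (r = 0.957), Dhrs1 (0.947) and Mtmr7 (0.947). Igfbp1 was most like Gpcpd1 (r = 0.95), Nfil3 (0.939) and Ppp1r15a (0.934), and Socs2 was most like Tmem87b (0.951), Cux2 (0.951) and Tspyl4 (0.947). For Ghr the closest were Gamt (r = 0.936), Cyp2c44 (0.93) and Aox3 (0.914), and for Igf1 they were Ebp (0.872), Reep3 (0.863) and Mdh1 (0.858).

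Exon use was read from the deposited counts of skipped-exon (SE) events. Inclusion counts hold reads on the exon and at its junctions, and skipping counts hold reads of the junction that skips it. An inclusion count therefore need not come from spliced reads. Where every library had at least 10 counts, limma was fitted to the log2 of inclusion over skipping. The events of 1 gene overlap and share junctions, so they are not separate findings. Of 169 events tested in genes of the axis in fasted liver, 13 were called by genotype (7.69%), where 10.8% of all 69644 events were, and 12 of the 13 were in Igf1 and 1 in Cish. In refed liver 7 of 204 were called (3.43%), all in Igf1, where 1.03% of all 65231 events were. Those 7 calls were lost in each fit that left out 1 library, as were nearly all calls over all events (671 with every library, 0 to 13 with 1 left out). With refeeding, 3 of 59 events were called in Lpin1-/- liver (5.08%), where 7.32% of all 28444 events were. In Lpin1+/+ liver limma called 0 of 59, with 1 at an unadjusted p under 0.05, and 0% of all events, with 1378 at an unadjusted p under 0.05.

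Igf1 has alternative exons before exon 3, here called exon 1 and exon 2. The stretch called exon 2 is annotated as exon number 2 of the transcripts that hold it, so it is not a first exon in them. In RefSeq, however, the 250 bases before the Igf1 start end at chr10:87861110, so that start lies between exon 1 and exon 2. Exon 1 and exon 2 are each normally spliced to exon 3. In Lpin1-/- libraries a small share of exon 1 was instead joined to exon 2. The 2 junctions are shown with 12 bases of exon 1 in lower case and 12 bases of the next exon in capitals (GRCm38, chromosome 10, plus strand).
exon 1 to exon 2: gacttcttgaagTCCTCAGTTTTG
exon 1 to exon 3: gacttcttgaagATAAAGATACAC
The junction to exon 3 was found in 3 of 8 annotated Igf1 transcripts and the junction to exon 2 in 0 of 8. Exon 1 is chr10:87859258-87859412, exon 2 is chr10:87861296-87861385 and exon 3 is chr10:87864731-87864887. Reads from exon 1 to exon 2 numbered 0, 3 and 7 in fasted Lpin1+/+, 101, 65 and 149 in fasted Lpin1-/-, 4, 1 and 4 in refed Lpin1+/+, and 227, 124 and 145 in refed Lpin1-/- liver. Reads from exon 1 to exon 3 numbered 2062, 2157 and 1852 in fasted Lpin1+/+ and 2230, 2383 and 2137 in fasted Lpin1-/- liver, and 2008, 1936 and 2752 in refed Lpin1+/+ and 4554, 3684 and 3343 in refed Lpin1-/- liver. The exon 2 junction thus made up 0, 0.139 and 0.377% of both junctions in fasted Lpin1+/+ and 4.33, 2.66 and 6.52% in fasted Lpin1-/- liver. In refed liver it made up 0.199, 0.0516 and 0.145% in Lpin1+/+ and 4.75, 3.26 and 4.16% in Lpin1-/- liver. The mean share was 0.172 ± 0.191% (SD, n = 3) against 4.50 ± 1.94% when fasted and 0.132 ± 0.0746% against 4.06 ± 0.75% when refed, and the genotypes did not overlap. The exact Clopper-Pearson 95% interval of the lowest Lpin1-/- share was 2.06 to 3.37% and that of the highest Lpin1+/+ share was 0.152 to 0.774%. For the count of 0 of 2062 the exact 95% upper limit is 0.179%, and a floor of 3 counts is 0.145%. Such intervals cover counting error only.

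This junction is the skipping form of 3 of the 12 called Igf1 events when fasted and of 5 of 7 when refed. In the event of the exon chr10:87859509-87859639, for example, the ratio of inclusion to that junction fell by 5.45 on the log2 scale when fasted (± 1.02 SE, adjusted p = 0.00633) and by 4.57 when refed (± 0.61 SE, limma adjusted p = 0.0136). Joined to an inner start of exon 2 at 87861328, the same exon had 0, 0 and 0 skipping counts in fasted Lpin1+/+ and 10, 10 and 8 in fasted Lpin1-/- liver (-4.24 ± 0.70 SE, limma adjusted p = 0.0034). In the opposite direction, chr10:87860889-87861015 between chr10:87860452-87860592 and exon 3 had skipping counts of 3, 2 and 3 in Lpin1+/+ and 0, 1 and 0 in Lpin1-/- liver (2.97 ± 0.79 SE, limma adjusted p = 0.0336). An inner stretch of exon 2 (chr10:87861328-87861384) between exons 1 and 3 had 0, 0 and 1 inclusion counts in fasted Lpin1+/+ and 8, 10 and 9 in fasted Lpin1-/- liver, and 0, 0 and 0 against 15, 11 and 11 in refed liver. Its ratio rose in both states (3.56 ± 0.77 SE, adjusted p = 0.0124, and 3.87 ± 0.58 SE, adjusted p = 0.02, limma).

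Further Igf1 inclusion in fasted Lpin1-/- liver lay in stretches between the coding exons. The stretch chr10:87912192-87912408 had 0 inclusion counts in each Lpin1+/+ library and 24, 69 and 36 in the Lpin1-/- libraries, against 6037 to 7497 skipping counts, and its ratio rose (6.19 ± 0.73 SE, limma adjusted p = 0.00108). The stretch gave 3 of the called events, which share the start and differ in the end. The stretch chr10:87927690-87927788 had 6, 4 and 4 inclusion counts in Lpin1+/+ and 53, 38 and 60 in Lpin1-/- liver, beside 5213 to 6479 skipping counts, and its ratio rose too (3.16 ± 0.72 SE, adjusted p = 0.0154, limma). With refeeding of Lpin1-/- mice, 2 overlapping events of exon 2 between the upstream stretch ending at 87860210 and exon 3 were called (3.75 ± 0.85 SE, adjusted p = 0.0188, and 3.68 ± 0.85 SE, adjusted p = 0.0201, limma), on skipping counts of 2, 3 and 10 fasted and 0, 0 and 0 refed. These counts are small beside the main splice form, and the fold of a ratio with 0 counts depends on the 0.5 added to each count.

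**Figure D5:**
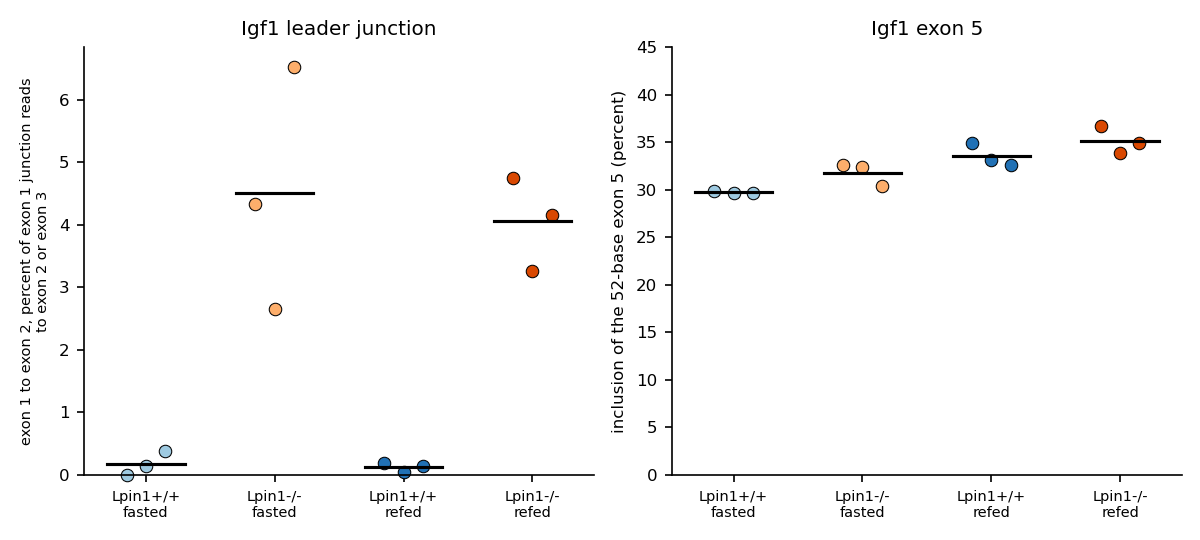
Left, percent of exon 1 junction reads of Igf1 that join exon 2, in each library, with the group mean as a bar. Right, percent inclusion of Igf1 exon 5 in each library. The left panel separates the genotypes (at most 0.377% against at least 2.66%), while the right panel spans 29.7 to 36.7%.

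Igf1 exon 5 sets the end of the IGF1 precursor, the E peptide, since its inclusion shifts the frame and gives the form called Igf1Eb in rodents, or mechano growth factor. Its 52 bases (chr10:87915298-87915349, coding) are shown because the 2 precursors differ by them.
Igf1 exon 5: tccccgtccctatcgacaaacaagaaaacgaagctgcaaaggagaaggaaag
Length-normalized inclusion of exon 5 was 29.9, 29.7 and 29.7% in fasted Lpin1+/+, 32.6, 32.4 and 30.4% in fasted Lpin1-/-, 34.9, 33.1 and 32.6% in refed Lpin1+/+, and 36.7, 33.9 and 34.9% in refed Lpin1-/- liver. The fasted genotypes did not overlap, nor did fasted and refed libraries of either genotype, though the shifts were a few percentage points. In limma the log2 ratio changed by 0.14 by genotype when fasted (95% interval -1.36 to 1.64, adjusted p = 0.919), 0.10 when refed (-1.18 to 1.39, adjusted p = 0.955), 0.25 with refeeding of Lpin1+/+ (adjusted p = 1) and 0.22 with refeeding of Lpin1-/- mice (adjusted p = 0.852). Those intervals take most of their width from the spread of all events, and an exact permutation test of 3 against 3 libraries cannot go below p = 0.1. Another event of the same exon, flanked downstream by the stretch at 87927690, was called (-2.97 ± 0.85 SE, limma adjusted p = 0.0451) on skipping counts of 0, 0 and 0 in fasted Lpin1+/+ and 1, 9 and 7 in fasted Lpin1-/- liver.

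Outside Igf1, the called member was exon 2 of Cish, which is coding (chr9:107299924-107300144). Skipping counts were 0, 0 and 0 in fasted Lpin1+/+ and 6, 5 and 7 in fasted Lpin1-/- liver, beside inclusion counts of 301, 50 and 51 and of 13, 28 and 204. Its ratio fell by 4.79 in fasted Lpin1-/- liver (± 1.05 SE, adjusted p = 0.0134) and rose by 7.44 with refeeding of Lpin1-/- mice (± 1.15 SE, limma adjusted p = 0.0026), when all 3 libraries had 0 skipping counts. Inclusion counts of the refed Lpin1-/- libraries were 1010, 383 and 491. The skipping counts are few, and the size of both changes depends on the 0.5 added to each count. The Socs2 exon chr10:95416000-95416175 was included at 5.06 ± 0.61% in fasted Lpin1+/+ and 20.6 ± 3.5% in fasted Lpin1-/- liver (SD, n = 3), with a log2 change of 2.22 that was not called (± 0.70 SE, limma adjusted p = 0.0635). In refed liver it stood at 2.82 ± 1.4% and 5.85 ± 1.2% (change 1.1, adjusted p = 0.503, limma). For the other genes, whose events had no call, the event with the most balanced inclusion and skipping counts was taken. For Ghr it was chr15:3582258-3582502, which overlaps a noncoding annotated exon and was included at 4.14 ± 0.42% in fasted Lpin1+/+ and 3.42 ± 0.46% in fasted Lpin1-/- liver (-0.29 ± 0.69 SE, limma adjusted p = 0.822), and at 5.64 ± 1.2% and 4.29 ± 0.50% in refed liver (-0.40 ± 0.59 SE, adjusted p = 0.808). For Stat5b it was an intronic stretch (chr11:100810855-100811036) included at 14.6 ± 7.5% and 38.0 ± 15% in fasted liver, where 1 library had under 10 counts and it was not tested, and at 2.94 ± 3.2% and 11 ± 3.3% in refed liver (2.26 ± 0.78 SE, limma adjusted p = 0.235). Igfbp4 had the exon chr11:99043595-99043624, with 0.362 ± 0.082% and 0.708 ± 0.16% when fasted (0.97 ± 0.71 SE, limma adjusted p = 0.414) and 0.403 ± 0.071% and 0.555 ± 0.018% when refed (0.48 ± 0.58 SE, adjusted p = 0.763). In Igfbp1 (-0.42, limma adjusted p = 0.787, fasted), Igfbp2 (0.44, adjusted p = 0.734, fasted, and -0.54, adjusted p = 0.834, refed) and Igfals (0.43, adjusted p = 0.834, refed) the events were included at under 5% and were not called. Igfbp3 had 0 events in either table. In fasted liver another Ghr stretch, chr15:3327600-3327686, was included at 60.9, 81.7 and 75.1% in Lpin1+/+ and 87.0, 83.6 and 84.3% in Lpin1-/- libraries. The genotypes did not overlap there, but the log2 change of 1.04 was not called (± 0.74 SE, limma adjusted p = 0.4).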

How the data were processed

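Liver RNA was sequenced by the authors as 69-base paired reads, about 150 M a library per the labels, from stranded libraries, each pooled over several of 6 lanes, so lane does not follow group. Per the labels, the reads were aligned to GRCm38, and the submitters' processing notes name HISAT2 2.0.5, HTSeq 0.6.0 and DESeq2 1.20.0. The authors deposited RPKM per gene and library, and rMATS tables of inclusion and skipping counts for skipped exons. The deposited tables also hold p-values and differences of the authors' own comparisons, which were not used. Exon tables give each group's counts as a list with no replicate number, and lists were assigned to groups through events whose counts recur in the Lpin1+/+ feeding table (1523 of 1523 and 1719 of 1719 identical).

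From RPKM, log2(RPKM + 1) was fitted by limma 3.58.1 (R 4.3.3) over 4 groups with a variance trend, keeping genes that averaged 0.5 RPKM or more. Counts per gene were not used here, so the study's count model was replaced by limma. Exon events were fitted by limma on log2 of length-normalized inclusion over skipping counts, with 0.5 added, using the 6 libraries of a feeding state for genotype and 34409 events common to both tables for feeding. Both fits were checked on simulated data. The simulated exon events had more counts in both forms than many of the called ones, such as that of Cish. That check therefore does not cover calls on few counts. Positions are from GENCODE M21 and promoters from RefSeq (GRCm38.p6). Tables used pandas 2.3.3 and numpy 2.4.6 in Python 3.11.15, and figures matplotlib 3.10.9. The 10 genes and the pathway, sex-biased and marker lists were chosen with earlier results of these data known. From the lists 2 genes are not reported here. Genes beyond the 10 were named where they passed the test within a list, and the closest genes by correlation were the first 3. RPKM is given for each member in each library. Of exon events, the calls are given singly or, where they overlap, by example, and for members with no call the event with the most balanced counts. For Ghr another event is given as well. Alternatives were another pseudocount (0.1), no filter or a minimum of 5 RPKM, median-ratio rescaling, library weights, only the libraries compared, a replicate block and leaving out each library. Same-numbered libraries of different groups deviated together in 8 of 18 pairs (r over 0.1, range -0.47 to 0.74). For numbers 1, 2 and 3, r was 0.74, 0.54 and 0.39 between fasted Lpin1+/+ and refed Lpin1-/-, and -0.47, -0.37 and -0.23 between the fasted genotypes. Libraries with different numbers were not compared, so these values cannot decide whether the numbers pair the samples. The main fits took no pairing.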

Additional observations from a re-analysis of the deposited data

How the results depend on the processing

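Calls among the 10 genes moved most with library weights, which called 1 gene for refeeding in Lpin1+/+, 4 for refeeding in Lpin1-/-, 6 by genotype fasted, 7 refed and 1 for the interaction. The weights were estimated gene by gene, a choice made after seeing the data, because the default estimate did not converge. For refeeding in Lpin1-/- liver, 1 gene was called with no filter, with rescaling or with a replicate block, Igfals being lost each time, and 2 with only the 6 libraries compared, where Igfals was lost and Cish gained, and 0 to 3 with 1 library left out. In refed liver the genotype count was 2 with rescaling, 3 with only the 6 libraries compared (Igfbp1 and Igfbp3 gained), and 0 to 2 with 1 library left out. In fasted liver it was 2 to 3 with 1 library left out, and 0 to 0 for refeeding in Lpin1+/+ and for the interaction. The replicate block changed no other call of a member and took the Lpin1 difference in fasted liver past the threshold (-2.19). That difference was also called at a pseudocount of 0.1 (-4.42) and with rescaling (-2.16), and the refed one at a pseudocount of 0.1 (-4.13). With 1 library left out the Lpin1 difference ranged from -2.92 to -1.05 fasted and from -1.92 to -1.35 refed. Exon events called in members were 4 in refed liver at a minimum of 50 counts. With 1 library left out they numbered 7 to 10 fasted (3264 to 9336 over all events), 0 to 0 refed (0 to 13 over all events), 0 to 0 for refeeding in Lpin1+/+ and 1 to 4 in Lpin1-/- liver (947 to 2676 over all events).

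Rescaling moved the median of all genes from 0.185 to 0.016 and from 0.25 to -0.028 for refeeding of Lpin1+/+ and Lpin1-/- liver, and from -0.143 to 0.014 and from -0.068 to -0.02 for genotype, fasted and refed. The share of calls that were higher changed with it, being 63.2% and 59.2% for refeeding and 46.9% and 50% for genotype after rescaling, beside 175 higher and 23 lower, 2046 and 336, 648 and 1520, and 299 and 468 before. Directions that turned belong to values that were not called. With rescaling these were Igfbp4 in Lpin1+/+ refeeding (-0.13) and Igf1 in Lpin1-/- refeeding (-0.06). With library weights they were Igf1 in Lpin1+/+ refeeding (0.05), Cish fasted (0.33) and refed (-0.34) by genotype, Igfbp4 refed by genotype (-0.01), and the interactions of Socs2 (-0.67) and Cish (-0.67). With 1 library left out, ranges that crossed 0 for Lpin1+/+ refeeding were -0.19 to 0.12 for Igf1, -0.21 to 0.42 for Igfbp3, -0.05 to 0.18 for Igfbp4, -0.38 to 0.2 for Ghr and -0.81 to 0.06 for Stat5b. For Lpin1-/- refeeding they were -0.34 to 0.01 for Ghr and -0.83 to 0.43 for Socs2. By genotype they were -0.76 to 0.25 for Cish fasted, and -0.01 to 0.15 for Igfbp4 and -1.17 to 0.71 for Cish refed. Interactions ranged from -0.5 to 0.01 for Igfbp2, -0.05 to 0.67 for Igfbp3, -0.32 to 0.26 for Ghr, -0.29 to 0.98 for Socs2 and -0.87 to 1 for Cish. Apart from the smaller number of libraries where 1 was left out, the cause of these changes was not tested. With 3 libraries a group, and few counts at some junctions, small differences were not detectable.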
